A study of Mus musculus with 15 samples.

Results

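Pericytes and vascular smooth muscle cells are the mural cells that wrap blood vessels, and 9 genes used to recognize them were followed here by symbol among the 53465 genes of the table of normalized counts. The genes were *Acta2*, *Tagln*, *Myh11* and *Cnn1*, which belong to the contractile apparatus of smooth muscle, and *Rgs5*, *Cspg4*, *Des*, *Kcnj8* and *Mcam*, which are commonly used for pericytes. Mural cells share the outer face of capillaries, arterioles and venules with the endothelium, stabilize it and set vessel tone through contraction. No single gene is exclusive to them. *Acta2* is also made by activated fibroblasts, and *Mcam*, which codes for the adhesion molecule CD146, is also a well-known endothelial gene.

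The cells were isolated from tumors of B16-F0, a line of mouse melanoma cells, collected on day 15 from CAG-GFP mice, which carry green fluorescent protein in all tissues. The study used male and female mice of 8 to 14 weeks. From the GFP+, lineage-negative, CD34+ cells the authors sorted 3 populations on CD31 and VEGFR2: endovascular progenitors (EVP, CD31lo VEGFR2lo), transit amplifying cells (TA, CD31int VEGFR2lo) and definitive differentiated cells (D, CD31hi VEGFR2hi). Each population had 5 sequencing libraries, and nothing in the labels says that these came from separate animals, so the p-values measure the spread between libraries, which may be partly technical. No marker of mural cells was part of the gates.

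Between 5394356 and 26513073 reads per library fell on genes, and 3 reads, taken as the limit of detection, equalled between 1.81 and 10.5 normalized counts. In 6 libraries (EVP replicates 1 and 2, TA replicates 1, 2 and 3, and D replicate 1) between 727 and 1352 of 1406 olfactory receptor genes had a read, against 38 to 302 in the other 9 libraries. TA replicate 5 went against its CD31int gate at the RNA level, with 372 normalized counts of *Pecam1*, the gene of CD31. The other 4 TA libraries held 3137 or more, and EVP libraries at most 613. It also held 408 of *Kdr*, the gene of VEGFR2, which was gated low in EVP and TA alike, against 2042 or more in the other TA libraries and at most 712 in EVP. Most comparisons of TA are therefore also given without TA replicate 5.

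All 9 genes passed the minimum mean of 5 normalized counts and were tested with limma on log2(normalized count + 1), together with 25549 genes in all. A gene was called at a Benjamini-Hochberg adjusted p under 0.05. Between TA and D, 5 of the 9 genes were called, all higher in TA, where 12.5% of all tested genes were called, 8.21% higher in TA and 4.31% higher in D. Between EVP and D, 5 genes were called, 3 higher in EVP and 2 higher in D, beside 19.0% of all genes, of which 11.6% were higher in EVP and 7.46% higher in D. Between EVP and TA, 2 genes were called, both higher in TA, beside 3.50% of all genes, 1.94% higher in TA and 1.56% higher in EVP. The median log2 fold change of the 9 genes was 2.76 between TA and D, beside 0.24 over all tested genes, 1.68 between EVP and D, beside 0.46, and -2.17 between EVP and TA, beside 0.085. Without TA replicate 5 this median was 2.11 between TA and D, beside 0.31, and -1.85 between EVP and TA, beside 0.010. In that fit 5 genes were called between TA and D, beside 10.6% of all genes, and 2 between EVP and TA, beside 4.66%. Because the cells were measured in bulk, fewer mural cells and less mural RNA per cell cannot be told apart.

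*Acta2*, the gene of smooth muscle alpha-actin, lies on chromosome 19 (34241090 to 34255336, minus strand, GRCm38). Its promoter is shown because it held the only matches, among the markers with a promoter entry, to the CArG box, the binding motif of serum response factor, which drives many contractile genes. The sequence below is the RefSeq promoter of GRCm38.p6, the 250 bases upstream of the RefSeq start (chr19:34255374-34255623, minus strand), written 5′ to 3′ with the matches in capitals.

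Acta2: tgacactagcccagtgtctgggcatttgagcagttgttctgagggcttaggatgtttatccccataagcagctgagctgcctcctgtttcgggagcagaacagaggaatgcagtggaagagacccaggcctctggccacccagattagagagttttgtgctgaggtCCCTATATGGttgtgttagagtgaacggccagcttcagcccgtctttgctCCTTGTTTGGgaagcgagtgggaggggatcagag

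The matches, CCCTATATGG and CCTTGTTTGG, began 84 and 34 bases before the start, and each had 1 G or C among the central bases of the motif, where the strict form has none. Both strands were searched, and 8.59% of 32851 promoters of the same length held such a match, against 1.47% for the strict form. A promoter entry existed for 7 of the 9 genes, and *Cnn1*, *Rgs5*, *Cspg4*, *Des*, *Kcnj8* and *Mcam* held no match in this window. *Tagln* and *Myh11* had no entry.

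The 5 EVP libraries held 4456, 2652, 4130.4, 3835 and 17973 normalized counts of *Acta2*. The TA libraries held 1463, 14187, 3141, 6372 and 42164, and the D libraries 951, 625, 649.6, 2039.6 and 1572. EVP lay above D without overlap, which was so for 10.2% of all tested genes, while TA ran from within the range of D to above every EVP library. *Acta2* was 5.66-fold higher in EVP (6609 ± 6389, SD, n = 5) than in D (1167 ± 619), a log2 fold change of 2.28 (SE 0.71, limma adjusted p = 0.0310). The call rested on single libraries. Without EVP replicate 5 the log2 fold change was 1.82 (limma adjusted p = 0.0901), and the call was also lost without D replicate 1 (adjusted p = 0.0516), D replicate 2 (0.0799) or D replicate 3 (0.0762), with edgeR (0.0568) and with no minimum mean (0.0502). Between TA (13466 ± 16771) and D the log2 fold change was 2.76 (limma adjusted p = 0.0149), and without TA replicate 5 it was 2.11 (adjusted p = 0.0329). Between EVP and TA it was -0.48 (adjusted p = 0.898) and turned to 0.17 without TA replicate 5. *Acta2* shares long stretches of near-identical sequence with its paralogs *Actg2*, *Acta1*, *Actc1*, *Actb* and *Actg1*, so its reads could have been split or dropped among them, and its level is uncertain to that extent.

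*Tagln* (chromosome 9, 45929619 to 45936058, minus strand) codes for transgelin, an actin-binding protein of smooth muscle. It had 56.2, 48.3, 29.5, 37.6 and 204 normalized counts in EVP and 19.0, 282, 58.0, 34.5 and 279.6 in TA. In D it had 15.1, 14.7, 17.2, 24.0 and 16.3. Every EVP library was above every D library, and TA replicates 2 and 5 stood far above the other TA libraries. The log2 fold change was 1.68 between EVP and D (SE 0.71, limma adjusted p = 0.125) and 2.14 between TA and D (adjusted p = 0.0603), so neither passed the threshold. Between TA and D it was 1.69 without TA replicate 5 (adjusted p = 0.166), and it passed without TA replicate 1 (adjusted p = 0.0129) or TA replicate 4. EVP and TA differed by -0.46, and by -0.0064 without TA replicate 5 (adjusted p = 0.999). Of its exon length, 62.4% also belongs to the antisense gene *AC122273.1*. That gene had at most 51 reads in a library, against 11 to 449 for *Tagln*. HTSeq-count sets aside reads that fall on both of a pair of genes when strand is not used, the strand setting was not given, and its part in the level of *Tagln* was not tested.

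*Myh11*, the smooth muscle myosin heavy chain (chromosome 16, 14194527 to 14291408, minus strand), is among the most specific genes of mature smooth muscle. Its EVP libraries held 77.2, 2.61, 102, 121 and 154 normalized counts, and its TA libraries held 148, 592, 363, 789.8 and 1499. Its D libraries held 135, 12.2, 39.9, 60.9 and 41.1. All TA libraries were above all D libraries, which was so for 5.56% of tested genes, and TA replicate 1 alone fell within the range of EVP. *Myh11* was 11.8-fold higher in TA than in D, a log2 fold change of 3.52 (SE 0.90, limma adjusted p = 0.0144). Without TA replicate 5 the fold was 8.20 and the log2 fold change 3.14 (adjusted p = 0.0427), and without the replicate 5 libraries of all 3 populations it was 3.11 (adjusted p = 0.0881). *Myh11* was lower in EVP than in TA by a log2 fold change of -3.21, which missed the threshold (adjusted p = 0.0606). It was -2.83 without TA replicate 5 (adjusted p = 0.112), and it passed without TA replicate 1 or EVP replicate 5 (adjusted p = 0.0476 in both) and in 7 of 14 other alternatives, in which the adjusted p ran from 0.00307 to 0.146. EVP and D differed by 0.31 (adjusted p = 0.866), a direction that turned with quantile normalization. EVP replicate 2 held 2 reads of *Myh11*, under the limit of detection. Without this library the log2 fold change was -2.23 between EVP and TA and 1.30 between EVP and D, and neither was called.

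*Cnn1* (chromosome 9, 22099216 to 22109630, plus strand) codes for calponin, which binds actin and restrains the contractile filament. It was the lowest of the 9 genes in D, with 1.37, 0, 0, 3.0 and 13.3 normalized counts, and 3 of these libraries were at or under 3 reads. In EVP it had 17.6, 5.23, 74.4, 6.39 and 94.0, and in TA 41.4, 29.9, 525, 76.0 and 212. Each TA library was above each D library, and the highest, TA replicate 3, held 59.3% of the sum over TA. *Cnn1* was 50-fold higher in TA (177 ± 208, SD, n = 5) than in D (3.53 ± 5.60), a log2 fold change of 5.26 (SE 1.01, limma adjusted p = 0.00193), and 5.00 without TA replicate 5. Between EVP and D the log2 fold change was 3.09 (adjusted p = 0.0400), and the call was lost in 8 of 15 fits that left out 1 library, with adjusted p from 0.0184 to 0.117. It was lost without EVP replicates 1, 3 or 5, TA replicate 4 or D replicates 1, 2, 3 or 4, and in 6 of 14 other alternatives, with an adjusted p of up to 0.256 with quantile normalization.

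**Figure D1:**
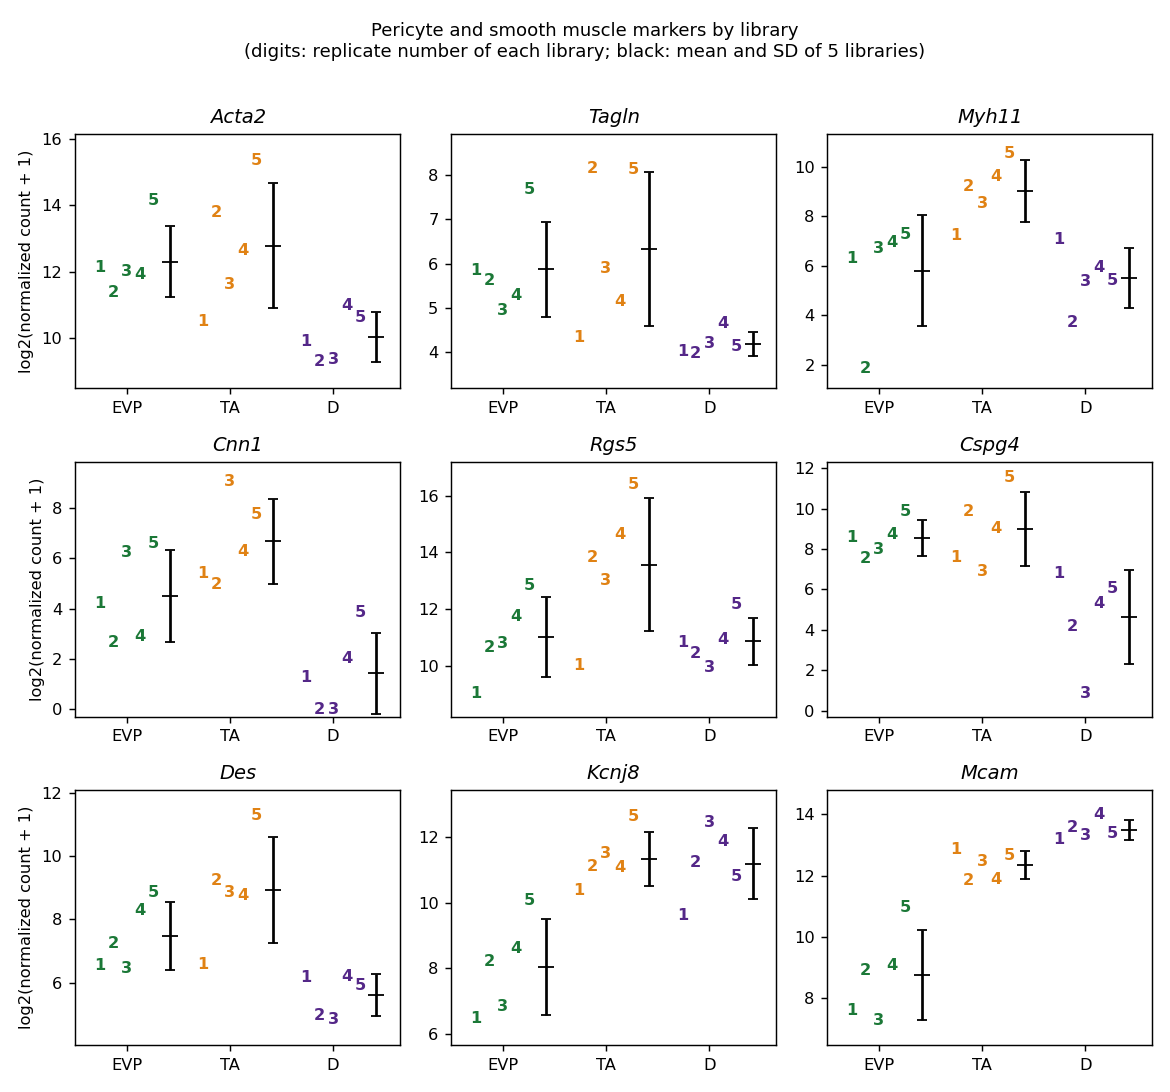
Each panel shows 1 of the 9 genes, with log2(normalized count + 1) on the vertical axis and the populations on the horizontal axis. Each digit is the replicate number of a library, and black bars give the mean and SD of 5 libraries. TA replicate 5 is the highest TA library for 6 of the 9 genes and TA replicate 1 the lowest for 6, and *Mcam* separates all 3 populations.

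*Rgs5*, a regulator of G protein signaling that is strongly enriched in pericytes (chromosome 1, 169655501 to 169695813, plus strand), had the widest range within TA. Its TA libraries held 1029, 14465, 8292, 25309 and 85852 normalized counts, so TA replicate 5 alone held 63.6% of the sum. The EVP libraries held 519.6, 1629, 1796, 3438 and 7377, and the D libraries 1826, 1407, 994, 1953 and 4625. TA replicate 1 lay within the range of both other populations, and the other 4 TA libraries were above every EVP and D library. The mean was 12.5-fold higher in TA (26989 ± 34088, SD, n = 5) than in D (2161 ± 1428), but the log2 fold change of 2.70 missed the threshold (SE 0.89, limma adjusted p = 0.0556). Without TA replicate 1 it was 3.59 (adjusted p = 0.00207), and without TA replicate 5 it was 2.00 (adjusted p = 0.143). It also passed without EVP replicate 1 and in 8 of 14 other alternatives. *Rgs5* was 9.14-fold higher in TA than in EVP, a log2 fold change of -2.55 for EVP against TA (adjusted p = 0.139), which passed the threshold without TA replicate 1 (-3.44, adjusted p = 0.0179). Without TA replicate 5 the fold was 4.16 and the log2 fold change -1.85 (adjusted p = 0.256). EVP and D differed by 0.15 (adjusted p = 0.933), a direction that turned without EVP replicate 5 (-0.31).

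*Cspg4* (chromosome 9, 56865033 to 56899870, plus strand) codes for NG2, a proteoglycan on the surface of pericytes. It had 383, 186, 255, 418 and 934 normalized counts in EVP and 191, 918, 118, 527 and 2944 in TA. In D it had 108, 17.1, 0.782, 39.1 and 65.3, the third of which was under the limit of detection. Both EVP and TA lay above D without overlap, and EVP and TA overlapped over most of their range. The log2 fold change was 3.91 between EVP and D (SE 0.97, limma adjusted p = 0.00734) and 4.35 between TA and D (adjusted p = 0.00570). Without TA replicate 5 the latter was 3.71 (adjusted p = 0.0170). TA was 2.16-fold above EVP in the means, but the log2 fold change of -0.44 turned to 0.20 without TA replicate 5, and the means were then 438 and 435.

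*Des* (chromosome 1, 75360329 to 75368579, plus strand) codes for desmin, the intermediate filament of muscle that also marks pericytes. Its values were 91.3, 149, 85.9, 308 and 465 normalized counts in EVP, 93.1, 593, 455, 436 and 2502 in TA, and 70.0, 30.2, 27.4, 71.4 and 58.6 in D. EVP and TA were each above D without overlap. *Des* was 15.8-fold higher in TA than in D, a log2 fold change of 3.33 (SE 0.68, limma adjusted p = 0.00292), and 7.66-fold higher without TA replicate 5 (2.74, adjusted p = 0.00647). Between EVP and D the log2 fold change of 1.86 missed the threshold (adjusted p = 0.0667), and without TA replicate 1 (adjusted p = 0.0238) or TA replicate 5, which changed only the estimate of the spread and the genes tested, it passed. Between EVP and TA it was -1.47 (adjusted p = 0.305), and -0.88 without TA replicate 5 (adjusted p = 0.558).

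*Kcnj8* and *Mcam* had another pattern, with their lowest values in EVP. *Kcnj8* (chromosome 6, 142564837 to 142571614, minus strand) codes for Kir6.1, the pore of an ATP-sensitive potassium channel of mural cells. The EVP libraries held 87.8, 295, 113, 392 and 1081 normalized counts, the TA libraries 1338, 2214, 2892, 2138 and 6333, and the D libraries 776, 2400.1, 5519, 3744 and 1786. TA was above EVP without overlap, which was so for 1.59% of tested genes, and D overlapped EVP only through D replicate 1 and EVP replicate 5. *Kcnj8* was 7.57-fold higher in TA than in EVP (log2 fold change for EVP against TA -3.30, SE 0.62, limma adjusted p = 0.00732) and 7.22-fold higher in D than in EVP (-3.14, adjusted p = 0.00119). Without TA replicate 5 the first of these was -2.97 (adjusted p = 0.0109). TA and D differed by 0.15 (adjusted p = 0.930), and the direction turned without TA replicate 5 (-0.17).

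*Mcam* (chromosome 9, 44134469 to 44142727, plus strand) was the only 1 of the 9 genes with its highest mean in D. It had 189.6, 478, 152, 531 and 1976 normalized counts in EVP, 7472, 3655, 5654, 3744 and 6443 in TA, and 9314, 12247, 10216, 16318 and 10577 in D. No population overlapped another. Every D library was above every EVP library, which was so for 7.52% of tested genes, and above every TA library, which was so for 3.69%. *Mcam* was 17.6-fold higher in D (11735 ± 2774, SD, n = 5) than in EVP (666 ± 752), a log2 fold change of -4.74 for EVP against D (SE 0.49, limma adjusted p = 1.46e-06). It was 8.10-fold higher in TA than in EVP (-3.59, adjusted p = 0.00148), also without TA replicate 5 (7.71-fold, adjusted p = 7.64e-04). The log2 fold change of -1.15 between TA and D missed the threshold (adjusted p = 0.157) and passed it without EVP replicate 5 (adjusted p = 0.0281). TA replicate 5 held 6443 normalized counts of *Mcam*, within the range of the other TA libraries, although its *Pecam1* and *Kdr* were in the range of EVP.

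**Figure D2:**
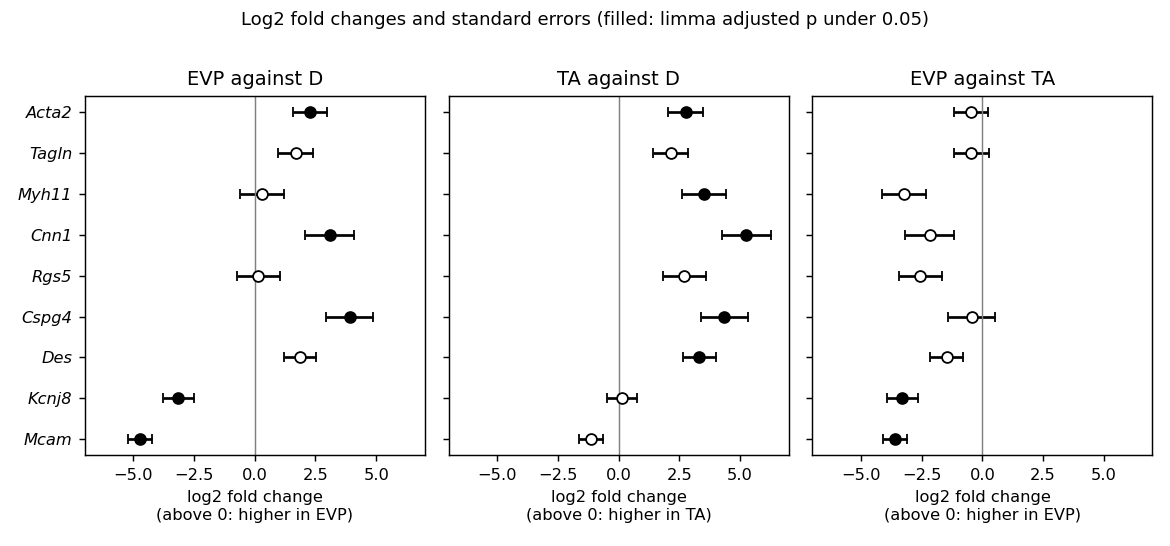
Log2 fold changes of the 9 genes (horizontal axis) in each comparison, with standard errors from limma and filled points at an adjusted p under 0.05. Between TA and D, 5 genes were called above 0. All 9 genes lay below 0 between EVP and TA, and only *Kcnj8* and *Mcam* did between EVP and D.

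On log2 values, the mean was highest in TA for 8 of the 9 genes, which was so for 30% of tested genes, and for 5 of them without TA replicate 5, beside 35% of genes. *Acta2*, *Cspg4* and *Kcnj8* were the genes that changed place. Levels of different genes were compared per kilobase of exon. In TA the mean level per kilobase was 6132 ± 7637 normalized counts for *Acta2* (SD, n = 5), 5937 ± 7499 for *Rgs5*, 1610.0 ± 500.2 for *Mcam* and 1171 ± 766 for *Kcnj8*. *Des* (217 ± 256), *Myh11* (89.3 ± 68.2), *Cspg4* (78.8 ± 97.6), *Tagln* (67.7 ± 67.5) and *Cnn1* (64.6 ± 75.9) had lower levels per kilobase in TA, and no neighbours in this order differed beyond their SDs. The levels per kilobase in TA without TA replicate 5 were 2865 ± 2570.5 for *Acta2* (SD, n = 4), 2699.9 ± 2261 for *Rgs5*, 1532 ± 541 for *Mcam*, 842 ± 249.7 for *Kcnj8* and 105 ± 56.7 for *Des*, and *Cspg4* (36.8 ± 30.6) moved to the last place. In EVP *Acta2* came first in level per kilobase (3009.6 ± 2909), ahead of *Rgs5* (649 ± 590.5), *Mcam* (199 ± 224) and *Kcnj8* (155 ± 159), again with overlapping SDs between neighbours. In D *Mcam* (3503 ± 828) was separated in level per kilobase from *Kcnj8* (1117 ± 723), and *Acta2* (532 ± 282) and *Rgs5* (475 ± 314) were close to each other. The other 5 genes had mean levels per kilobase from 1.29 for *Cnn1* to 13.7 for *Des* in D, below *Rgs5* beyond the SDs. *Tagln*, at 37.8 per kilobase in EVP and 8.79 in D, was below *Acta2* in all 3 populations, with the antisense overlap described above.

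The spread within TA was next compared with that of the other populations. The median over the 9 genes of the SD of log2(normalized count + 1) was 1.69 in TA, 1.42 in EVP and 0.82 in D, beside 1.15, 0.84 and 0.74 over all tested genes. TA replicate 5 was the highest TA library for 6 of the 9 genes, whereas it was the highest for 10.9% of tested genes. EVP replicate 5 was the highest EVP library for 9 of 9, beside 11.6% of tested genes. Without TA replicate 5 the median SD in TA was 1.34. The lowest TA library was replicate 1 for *Acta2*, *Tagln*, *Myh11*, *Rgs5*, *Des* and *Kcnj8*, replicate 2 for *Cnn1* and *Mcam*, and replicate 3 for *Cspg4*.

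The mean absolute deviation of the log2 values from the population's median was larger in TA than in D for 7 genes and larger than in EVP for 5. By exact permutation tests over all divisions of 5 libraries against 5 (two-sided), none of the 18 differences passed after Benjamini-Hochberg adjustment, and 1 had an unadjusted p under 0.05. This was *Tagln* against D, with a mean deviation of 1.36 in TA and 0.17 in D (exact permutation p = 0.0476, adjusted p = 0.673). For *Rgs5* it was 1.60 in TA and 0.538 in D (exact permutation p = 0.246). In each population 1 of the 5 libraries is the median and deviates by 0, so no such permutation test could give p under 0.0476. An adjusted p under 0.05 would have needed all 18 tests at that value, so these tests cannot decide whether the spreads differ. *Mcam* had the smallest deviation of the 9 genes in TA, 0.363, against 1.03 in EVP (exact permutation p = 0.167).

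**Figure D3:**
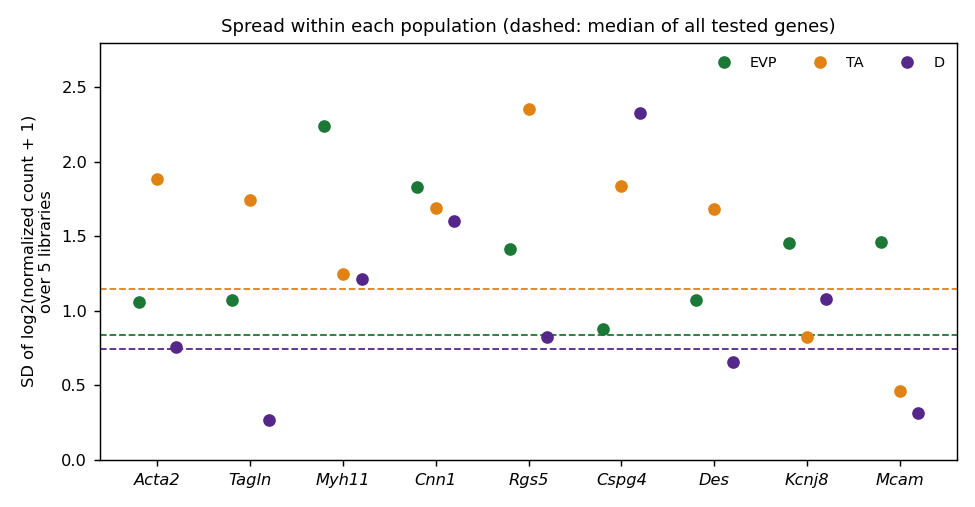
SD of log2(normalized count + 1) over 5 libraries (vertical axis) for each gene and population, with dashed lines at the median of all tested genes. The SD in TA reached 2.35 for *Rgs5* and was 0.47 for *Mcam*, and the widest SD was in TA for 4 of the 9 genes (*Acta2*, *Tagln*, *Rgs5* and *Des*), in EVP for 4 (*Myh11*, *Cnn1*, *Kcnj8* and *Mcam*) and in D for *Cspg4*.

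Other genes moved with this spread. In TA replicate 1, the lowest library for 6 of the 9 genes, *Pecam1* was highest at 15414 normalized counts and *Kdr* at 9699. In TA replicate 5 *Col1a1*, a fibroblast gene, reached 227624 normalized counts and *Col3a1* 234555, the highest of the TA libraries for both. TA replicate 5 was the highest TA library for 5 of the 10 fibroblast genes and the lowest for 10 of the 10 endothelial genes, whereas *Pdgfra* was highest in TA replicate 4. The sum over the 10 endothelial genes was 2246 in replicate 5, the lowest of TA, and 62306 in replicate 1, the highest. Over the 10 fibroblast genes it was 611636 in replicate 5 and 192799 in replicate 1, the highest and the lowest. Their part in the levels of the mural markers was not tested. Between populations, the endothelial sum was 2327 to 3914 in EVP and 87890 to 136332 in D, and the fibroblast sum 847250 to 1505580 in EVP and 1167 to 4252 in D. *Pecam1* and *Col1a1* had counts in every library, and no gene of either list was at 0 in all libraries of a population.

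**Figure D4:**
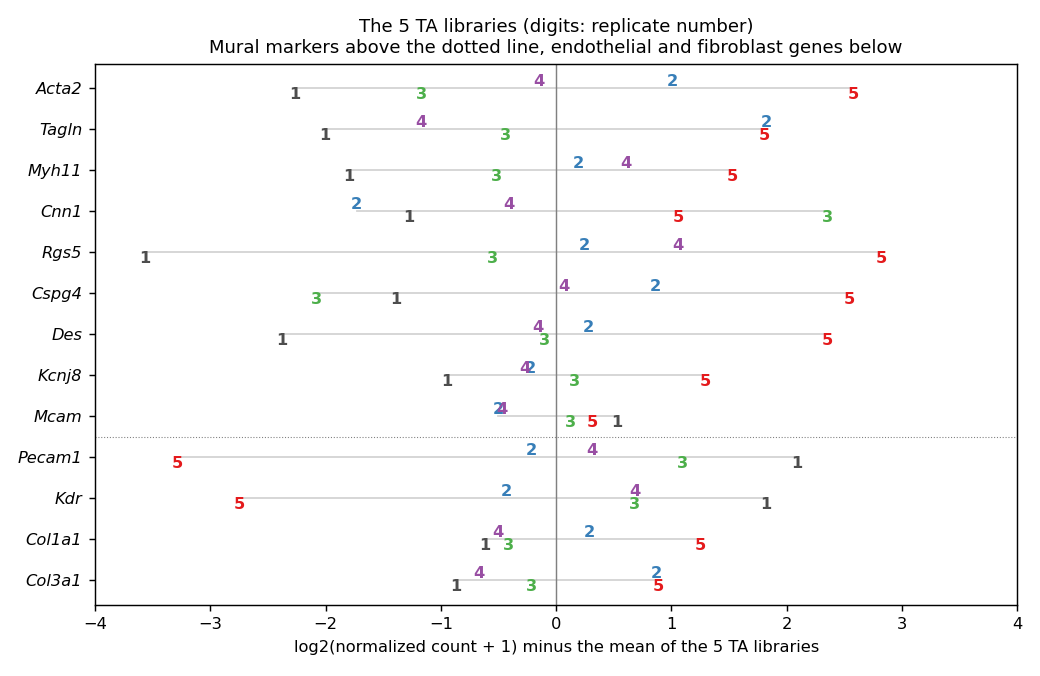
Deviation of each TA library from the mean of the 5 TA libraries on log2(normalized count + 1) (horizontal axis) for the 9 mural markers and, below the dotted line, 2 endothelial and 2 fibroblast genes. Digits are replicate numbers, and TA replicate 5 lies to the right for *Acta2*, *Rgs5*, *Cspg4*, *Des* and *Col1a1* and to the left for *Pecam1* and *Kdr*, where replicate 1 lies to the right.

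Signs of other cells also differed between TA and D, where 12.5% of all tested genes were called, 8.21% higher in TA. Of 6 melanoma genes, 6 were called higher in TA than in D, with a sum of 69248 to 175671 normalized counts in TA, 18157 to 47767 in D and 29702 to 67272 in EVP. *Cnn1* had its highest value in TA replicate 3, and so did *Mlana*, a melanocyte gene, with 15451 normalized counts. Of 5 basal keratinocyte genes, which myoepithelial cells share, 5 were called higher in TA than in D. Their sum reached 75897 in TA replicate 2, where *Tagln* was highest (282 normalized counts). *Tagln* was almost as high in TA replicate 5 (279.6), where each of the 5 keratinocyte genes was lower than in TA replicate 2. Of 10 skeletal muscle genes 1 was called between TA and D, and their sum was 205 to 897 in TA. Of 7 leukocyte genes 4 were called higher in TA than in D, with a sum of 3485 to 24147 in TA and 1502 to 2730.5 in D. Of 4 tested Schwann cell genes 3 were called higher in TA than in D. EVP was also called higher than D for 5 of the 5 keratinocyte genes and 2 of the 4 Schwann cell genes. The same held for 2 of the 10 skeletal muscle, 1 of the 6 melanoma and 0 of the 7 leukocyte genes, beside 19.0% of all genes called. Between EVP and TA, 3 melanoma and 3 leukocyte genes were called higher in TA, and 0 of the other lists, beside 3.50% of all genes. The part of these lists in the mural values was not tested.

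Among the members, deviations from the population means went together most closely for *Rgs5* and *Des* (Pearson r = 0.90 over 15 libraries), *Acta2* and *Tagln* (r = 0.87) and *Acta2* and *Des* (r = 0.86). *Kcnj8* and *Mcam* had r = 0.74 with each other, while *Cspg4* and *Kcnj8* had r = -0.04 and *Myh11* and *Mcam* r = -0.01. These are descriptions over libraries that share depth and scaling. The tested genes with the most alike pattern over the 15 libraries were also read as a description. They were *Traf4* (r = 0.97), *Myl9* (0.94) and *Cox4i2* (0.93) for *Acta2*, *Notch3* (0.97), *Cox4i2* (0.95) and *Myl9* (0.94) for *Des*, and *Myl9* (0.89), *Mgp* (0.86) and *Traf4* (0.86) for *Tagln*. For *Rgs5* they were *Tusc5* (0.97), *Adap2* (0.95) and *Dlk1* (0.94), and for *Cspg4* *Arhgef17* (0.97), *Rasl12* (0.95) and *Il34* (0.95). *Myh11* was most like *Gprc5c* (0.91), *Pde1b* (0.88) and *Gtf2h1* (0.87). The genes most like *Cnn1* were *Gpr37* (0.93), *Got1* (0.92) and *Slc24a5* (0.91), which all peaked in TA replicate 3. For *Kcnj8* they were *Rasgrp2* (0.94), *Adgre5* (0.92) and *Rcsd1* (0.92), and for *Mcam* *Sept4* (0.99), *Gnb4* (0.97) and *Sh2d3c* (0.96), which peaked in D replicate 4.

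A further 26 mural genes, 12 of pericytes and 14 of the contractile apparatus, were examined, of which 25 passed the minimum mean and *Pln* did not. Between TA and D the median log2 fold change was 3.17, beside 0.24 over all genes. Of the 25, 14 were called, beside 12.5% of all tested genes, and 13 of these were higher in TA. The exception was *Smtn*, which codes for smoothelin (-0.83, limma adjusted p = 0.0136). The largest was *Kcnmb1*, the beta subunit of the calcium-activated potassium channel of smooth muscle, with a log2 fold change of 6.27 (SE 0.92, adjusted p = 1.81e-04). *Pdgfrb*, the receptor through which endothelial PDGF-B recruits pericytes, followed with 5.26, the endothelin receptor *Ednra* with 4.48, *Heyl* with 4.37, the tropomyosin *Tpm2* with 4.34 and the integrin *Itga8* with 4.10. *Notch3*, a receptor of mural cells, was 3.80 higher (adjusted p = 0.00302). Without TA replicate 5, 12 of the 25 were called, beside 10.6% of all genes. The log2 fold changes of the single genes above include TA replicate 5. It was the highest TA library for *Kcnmb1*, *Pdgfrb* (10618 normalized counts), *Ednra*, *Heyl* (2663), *Tpm2* and *Notch3* (1939), but not for *Itga8* or *Smtn*.

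Between EVP and D the median log2 fold change was 2.67, beside 0.46. Of the 25, 17 were called, 13 higher in EVP and 4 higher in D, beside 19.0% of all tested genes. The largest were *Tbx18*, a transcription factor of mural cells, with 5.70 (SE 1.04, limma adjusted p = 5.50e-04), *Pdgfrb* with 5.45, *Tpm2* with 4.45, *Anpep* with 4.43, *Ndufa4l2* with 4.15 and *Foxs1* with 4.04. *Pdgfrb* held 2097 to 5492 normalized counts in EVP, 727 to 10618 in TA and 6.53 to 218 in D. *Notch3* was 2.60 higher in EVP than in D (adjusted p = 0.0243). The 4 genes higher in D, named after their values were seen, were *Abcc9*, *Mylk*, *Smtn* and *Tpm1*. *Abcc9*, which codes for SUR2, the regulatory partner of Kir6.1 in the potassium channel, differed by -3.23 (SE 0.46, adjusted p = 4.63e-05), beside -3.14 for *Kcnj8*. Of the 10 fibroblast genes, 10 were also called higher in EVP than in D, with a median log2 fold change of 9.29. Their part in the values of the further mural genes was not tested.

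Between EVP and TA, 2 of the 25 were called, both higher in TA, beside 3.50% of all tested genes. Without TA replicate 5, 3 of the 25 were called, 2 higher in TA and 1 higher in EVP, beside 4.66% of all genes. *Abcc9* held 62.2 to 422 normalized counts in EVP, 756 to 3112 in TA and 1139.5 to 3005.5 in D. Its log2 fold change for EVP against TA was -2.64 (SE 0.46, limma adjusted p = 0.00483), beside -3.30 for *Kcnj8*, so both channel subunits were higher in TA and D than in EVP. *Mylk*, the kinase that phosphorylates myosin light chain, differed by -2.55 (adjusted p = 0.0173). *Pdgfrb* (0.19, adjusted p = 0.984) and *Notch3* (-1.20, adjusted p = 0.537) were not called between EVP and TA.

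**Figure D5:**
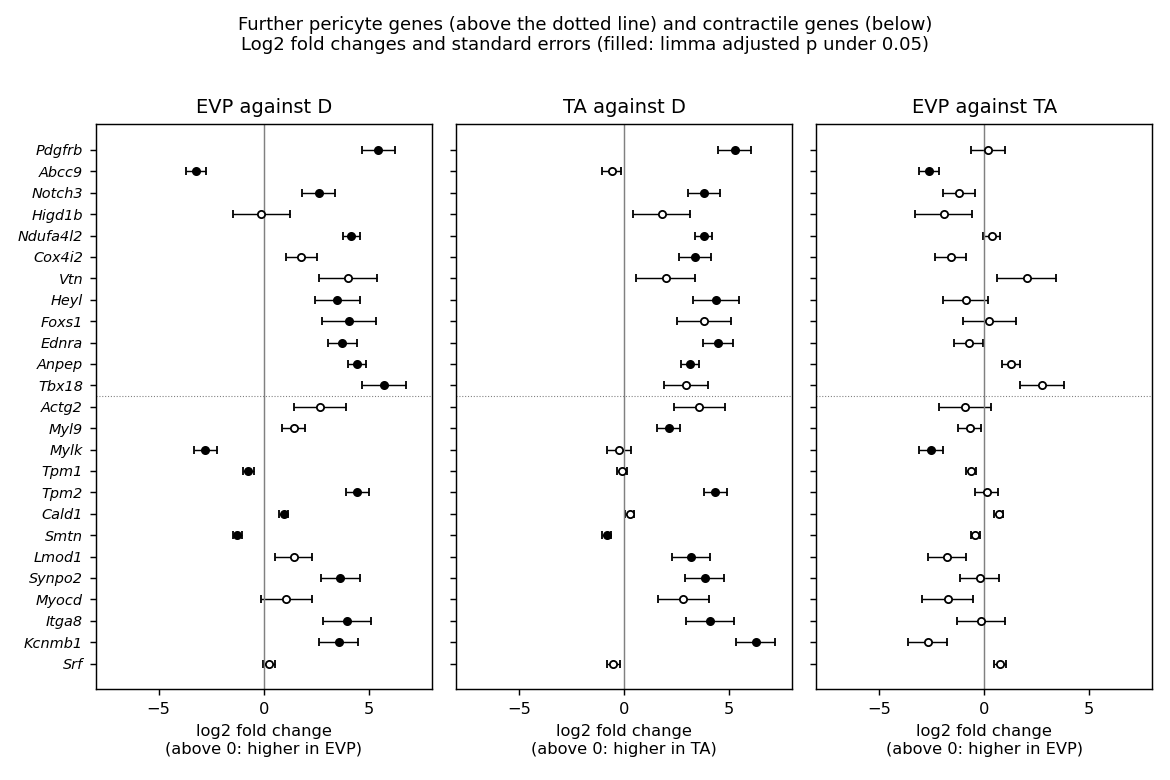
Log2 fold changes of 25 further mural genes (horizontal axis) with standard errors, filled at a limma adjusted p under 0.05, with pericyte genes above and contractile genes below the dotted line. Between TA and D 13 genes were called above 0 and *Smtn* below, and *Abcc9* and *Mylk* were called below 0 in both comparisons of EVP.

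Within the 9 libraries with few olfactory receptor genes detected (3 EVP, 2 TA and 4 D), 6 of the 9 markers were called between TA and D, all higher in TA, beside 22.5% of the 18012 genes tested there, and 7 between EVP and D, beside 30.8%, with *Myh11* (1.86, limma adjusted p = 0.0199) and *Des* (2.39, adjusted p = 0.0306) added, both higher in EVP. *Rgs5* was among those called between TA and D there (log2 fold change 4.63, limma adjusted p = 0.00228), and *Tagln* (2.41, adjusted p = 0.0963), *Kcnj8* and *Mcam* were not. The 2 TA libraries there were replicates 4 and 5, with 25309 and 85852 normalized counts of *Rgs5*. When only TA replicate 5 was left out of all libraries, *Rgs5* was not called between TA and D (limma adjusted p = 0.143). Between EVP and TA, limma called 0 of the 9 in these libraries, where 1 of all genes tested passed the threshold. At an unadjusted limma p under 0.05 there were 5 of the 9, beside 2146 of the 18012 genes tested there. With all libraries edgeR called 2 of the 9 between EVP and TA, beside 2.6% of all genes, and DESeq2 5, beside 7.44%. In the libraries with few olfactory receptor genes detected, *Kcnj8* (-3.34) and *Mcam* (-3.17) kept their directions. With edgeR on whole reads, 7 of the 9 were called between TA and D, beside 10.1% of all genes. These were *Tagln* and *Rgs5* in addition to the 5 of limma. DESeq2 on whole reads called the same number, beside 16.4% of all genes.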

How the data were processed

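RNA was sequenced from 15 libraries, 5 each of EVP, TA and D cells, which were grouped by their labels. Libraries were made by a version of Smart-Seq2. The authors used STAR 2.5.3a for alignment (mm10, Ensembl GRCm38 release 91), HTSeq-count for counting per gene, and DESeq2 1.10.1 for size factors. The strand setting of the counting is not given in the sources used here. The deposited normalized counts are a signal in which the authors divided each count by the size factor of its library, and 100% of the values were whole multiples of the value of 1 read (tolerance 0.001), so whole reads were recovered. The authors' own comparison tables hold fold changes and p-values and were not used.

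The 25549 of 53465 genes whose mean reached 5 normalized counts were tested on log2(normalized count + 1) with limma 3.58.1 in R 4.3.3 (trend, two-sided, 1 coefficient per population over all 15 libraries), with Benjamini-Hochberg adjustment over all tested genes. Fold changes on this scale understate the change of genes with low counts. A fold is the ratio of population means of normalized counts. SDs follow the ± sign. Without molecular identifiers, a limit of 3 reads reflects counting error alone. Spreads were compared with exact permutation tests of the mean absolute deviation from the median. Alternatives were edgeR 4.0.16 and DESeq2 1.42.0 on whole reads, pseudocounts of 0.5 and 8, no minimum or one of 20, other scalings, array weights, fits of 2 populations, a replicate block, deviations from the mean, and leaving out libraries. Leaving out the replicate 5 libraries was added after seeing the data. The scripts were tested on simulated data. The 9 genes, the further lists and the tests were chosen with earlier results of these data known. The text names all 9 genes, of the further mural genes those called, at most the 6 with the largest change per comparison, with *Pdgfrb*, *Notch3* and *Abcc9* always, and for each of the 9 the 3 genes with the highest correlation. Coordinates and exon lengths came from an annotation of GRCm38 that held 99.6% of the gene IDs, and 220 genes with a shared symbol were left out of lists. Promoters came from RefSeq.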

Additional observations from a re-analysis of the deposited data

Results flagged for a closer look

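In EVP, *Acta2* in replicate 5 stood far above the other 4 libraries, at 17973 normalized counts, with a gap to the nearest library of 0.729 of the whole range on the log2 scale, over the limit of 0.71 for 5 samples. *Myh11* in EVP replicate 2 stood far below the others, at 2.61 normalized counts, with a gap of 0.818 of the range. Of 27 groups of 5 libraries examined, these 2 passed, where chance alone passes about 1 in 20.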

How the results depend on the processing

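Over the 27 log2 fold changes of the 9 markers and all alternatives, 700 of 783 values kept their direction and their side of the threshold. The values that turned direction were not called in either form. Part of the agreement in direction was fixed in advance. A replicate block, another minimum mean, fits of 2 populations and the loss of a library outside the comparison left the log2 fold change unchanged. The count of markers called between TA and D stayed from 4 to 7 of 9. The share of all genes called there ran from 5.55% with no minimum mean to 22.6% without the replicate 1 libraries. Between EVP and D the count was 5, beside 19.0% of all genes, but 3 with no minimum mean (9.05%) or with edgeR (15.1%). It was 7 with array weights (29.8%), in a fit of these populations alone (21.7%), with DESeq2 (21.7%) and in the libraries with few olfactory receptor genes detected (30.8%). Between EVP and TA the count was 2, beside 3.50% of all genes. It was 4 with array weights (2.71%), 5 with DESeq2 (7.44%) and 0 in the libraries with few olfactory receptor genes detected (0.00555%). For the further genes the count was 2 between EVP and TA, and 1 in a fit of these populations alone (2.42% of all genes) or with edgeR (2.6%). It was 4 with DESeq2 and 0 in the libraries with few olfactory receptor genes, beside the shares just given. Between TA and D it was 14, beside 12.5% of all genes, and 9 with quantile normalization (10.1%). The cause was not tested, except that fewer libraries were fitted where some were left out.

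Leaving out 1 library at a time gave 3 to 6 markers between EVP and D (3 without EVP replicate 5 or D replicates 1, 2 or 3), 2 to 4 between EVP and TA (4 without TA replicate 1) and 5 to 7 between TA and D, and 1 to 3 further genes between EVP and TA (1 without EVP replicates 2 or 3). These fits called 15.8% to 21% of all genes between EVP and D. The share was 1.66% to 4.66% between EVP and TA and 9.25% to 16.5% between TA and D. For markers whose direction turned, the log2 fold change ran from -1.04 to 0.17 for *Acta2* and from -0.96 to 0.20 for *Cspg4* between EVP and TA (turned without TA replicate 5), from -0.14 to 1.30 for *Myh11* and from -0.31 to 0.65 for *Rgs5* between EVP and D, and from -0.25 to 0.46 for *Kcnj8* between TA and D. *Myh11* between EVP and D was -0.81 with quantile normalization and -0.086 without the replicate 5 libraries. *Kcnj8* between TA and D was -0.0078 without the replicate 1 libraries and -0.27 without the replicate 5 libraries. Over all genes, edgeR on whole reads called 3849 between EVP and D, 663 between EVP and TA and 2570 between TA and D, and DESeq2 called 5546, 1900 and 4202, against 4859, 893 and 3199 with limma. Between EVP and TA, the split of calls was 398 with the higher mean in EVP to 495 in TA, and 240 to 716 with the same total in every library. Quantile normalization moved the median log2 fold change of all genes from 0.46 to -0.038 between EVP and D and from 0.24 to -0.084 between TA and D.

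Libraries share replicate numbers across populations, which the labels do not tie to animals. Of 5 same-numbered pairs, the deviations from the population means correlated over 0.1 in 4 between EVP and D, 4 between EVP and TA and 3 between TA and D, and 4 libraries correlated best with their own number in each. With the replicate number as a block, 6, 4 and 7 markers were called (in the order of the pairs just given), against 5, 2 and 5, while 22.3%, 4.94% and 15.8% of all genes were called, against 19.0%, 3.50% and 12.5%. The block added *Rgs5* (adjusted p = 0.00350) and *Tagln* (0.0388) between TA and D, *Rgs5* (0.0154) and *Myh11* (0.0332) between EVP and TA, and *Des* between EVP and D. At this depth *Cnn1* in 3 D libraries, *Cspg4* in D replicate 3 and *Myh11* in EVP replicate 2 were at or under 3 reads.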
